A study of Mus musculus with 12 samples.

Results

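The genes described here are the members of cell-cycle and DNA replication gene families that carried a name on a mouse expression array: cyclins, cyclin-dependent kinases (CDKs), CDC genes, minichromosome maintenance (MCM), origin recognition (ORC), replication factor C (RFC), GINS and DNA polymerase subunits, E2F factors, kinesins, centromere proteins, mitotic kinases, structural maintenance of chromosomes (SMC) proteins, and checkpoint and repair genes. They were chosen by the start of the gene symbol, which uses no measured value. The rule found 90 genes with 127 probes among the 8127 genes with a name. Granulosa cells, the somatic cells that surround the oocyte in the ovarian follicle, were cultured from immature mice of 21 to 23 days, each culture from a pool of 14 to 20 ovaries. The cultures received PBS as the vehicle, activin A, or activin A plus its antagonist follistatin for 24 h. The whole experiment was run 4 times, with 1 array per treatment each time, so that each of the 3 groups holds 4 arrays. Strain and dose are not given in the sources used here. All groups were primary cultures, so the values are those of cultured cells and not of follicles.

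A cell that divides first licenses its replication origins by loading the MCM helicase with the help of ORC and CDC6, then copies its DNA with polymerases held on the template by a clamp that RFC loads. E2F factors switch on many genes for these steps, among them those for the enzymes that supply deoxynucleotides. Later, cyclin B with CDK1 drives entry into mitosis, kinesins and centromere proteins build and attach the spindle, and the anaphase-promoting complex with CDC20 lets the chromosomes separate. Granulosa cells proliferate strongly in growing follicles and leave the cell cycle when they luteinise, and activin is a known growth factor for them. Follistatin binds activin tightly and keeps it from its receptor.

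The deposited signals ran from 6.75 to 16.2 on a log2 or log2-like scale, and 7.31, the mean of the brightest control spot, was taken as background. Of the 90 members 64 (71.1%) had a mean above it, against 50.1% of all named genes, and the median signal was 8.09 for the members and 7.31 for all named genes. Control spots still averaged 7.12, so background remained in the signals. Differences of genes close to 7.31 can therefore be smaller than any change in RNA. Signals between any pair of arrays correlated at 0.967 to 0.994. The family names reach beyond the cell cycle. By role, 57 members act in replication, mitosis or the repair of DNA, and 33 do not or are not known mainly for it: 15 kinesins of transport and other roles, 7 further CDKs or CDK-binding proteins and 11 others, among which are Cdc42, the small GTPase of the cytoskeleton, and 4 of its partners. Of 35 textbook cell-cycle genes fixed for description, such as Cdk1, Ccna2 and Top2a, 11 were among the named genes and the others were not analysed here.

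The widest contrast, activin against activin plus follistatin, asks what changes when activin acts and when it is held back in cultures that received the same activin. The members called higher when activin acted alone were mostly genes of DNA replication and mitosis, with log2 differences of up to 1.12 for Cenpa, 1.07 for Ccnb1 and 1.02 for Cdc20. Of the 90 members, 24 (26.7%) were called higher and 5 (5.56%) lower, where called means an adjusted p under 0.05 by limma over all probes. Among all 46084 probes, 7.15% were called, 3.65% higher and 3.50% lower, and among all named genes 5.50% were higher and 6.42% lower. Above background, 24 of 64 members were higher and 4 lower (43.8% called). Of 4068 named genes above background, 428 were higher and 501 lower (22.8% called). The roles were assigned with earlier results of these data known, so the split by role is a description and not a test. Of the 57 members with a role in replication, mitosis or repair, 21 were called higher and 0 lower by limma. At an unadjusted p under 0.05 26 were higher and 1 lower, where 7.94% and 8.24% of all probes had such a p. The arrays of the groups did not overlap in 23 members higher and 6 lower with activin, against 5.44% and 5.56% of all probes. The other 33 members held 3 of the higher calls and all 5 lower calls. The median difference over the 90 members was 0.019, and it was -0.0020 over all named genes, because most members hardly moved: 48 of the 61 members without a call differed by less than 0.1. RNA came from whole cultures, so fewer cells of a type and less RNA per cell cannot be told apart.

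**Figure D1:**
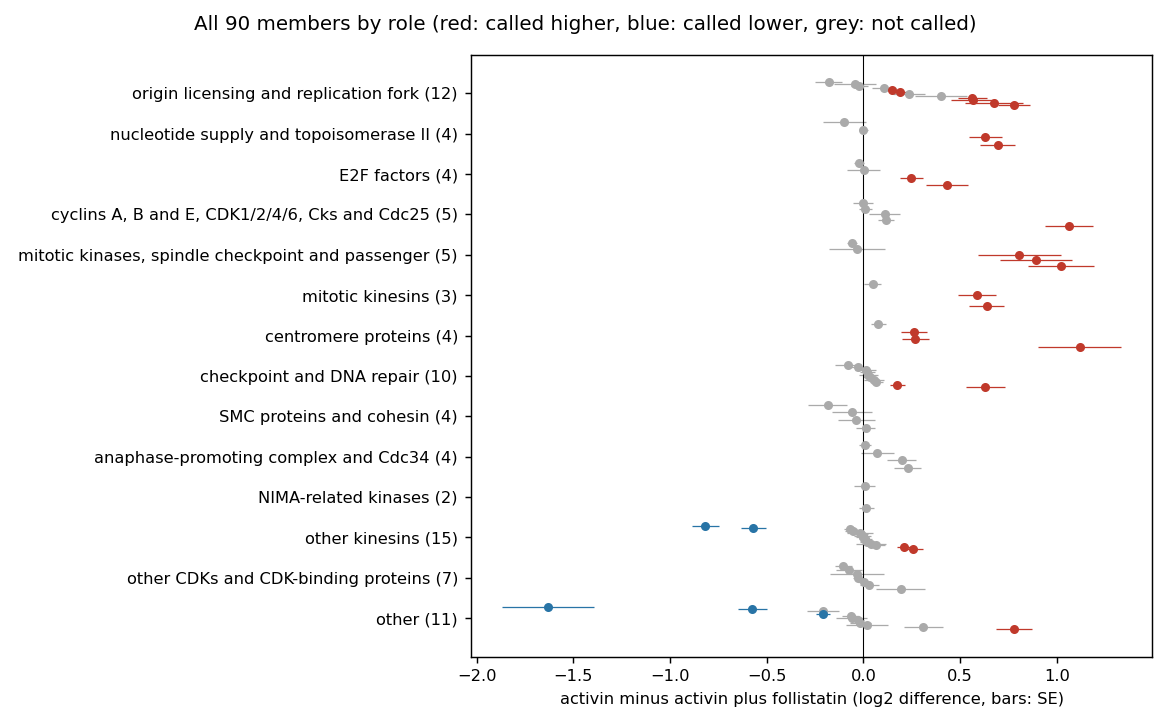
Log2 difference between activin and activin plus follistatin (horizontal axis) for each of the 90 members, grouped by role (vertical axis, with the number of members). Points are differences of means of 4 arrays per group and bars are standard errors. Red marks members called higher and blue those called lower, so each colour lies on its side of 0 by definition. Of the red points 21 have roles in replication, mitosis or repair, and 4 of the 5 blue points exceed 0.5 in size.

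Origin licensing and the replication fork were represented by 12 members, all above background: Cdc6, Gins3, Mcm7, Orc3, Orc4, Orc5, Pold4, Pole3, Pole4, Rfc2, Rfc3 and Rfc5. With activin alone 6 of them were called higher, with a median difference of 0.21. Cdc6 (Entrez gene 23834), which loads the MCM helicase onto origins, read 8.39, 8.35, 8.22 and 8.16 with PBS in experiments 1 to 4, 8.76, 8.51, 8.55 and 8.85 with activin and 8.05, 7.83, 7.87 and 7.80 with activin plus follistatin. Every activin array lay above every PBS array, and every array with follistatin lay below them. The difference between activin and activin plus follistatin was 0.78 ± 0.083 (SE, n = 4 per group), a 1.71-fold change (adjusted p = 0.000123). Mcm7 (Entrez gene 17220), a subunit of that helicase, gave 9.50, 9.93, 9.49 and 9.62 in the PBS arrays, 9.81, 9.89, 9.65 and 10.39 in the activin arrays and 9.12, 9.33, 9.13 and 9.47 in the arrays with follistatin. The activin array of experiment 4 stood highest, and the activin group overlapped the PBS group but not the group with follistatin (0.67 ± 0.15, 1.6-fold, adjusted p = 0.017).

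Rfc5 (Entrez gene 72151) and Rfc2 encode subunits of the clamp loader. Rfc5 read 9.06, 8.96, 9.01 and 9.01 with PBS in experiments 1 to 4, 9.22, 9.12, 8.89 and 9.30 with activin and 8.56, 8.58, 8.68 and 8.47 with activin plus follistatin. The arrays with follistatin lay apart from all others, while activin and PBS overlapped, with the activin array of experiment 3 below every PBS array. The difference between activin and activin plus follistatin was 0.56 ± 0.076 for Rfc5 (adjusted p = 0.000632) and 0.57 ± 0.12 for Rfc2 (adjusted p = 0.0106). The small subunit genes Gins3, of the GINS complex that completes the helicase, and Pole4, of DNA polymerase epsilon, differed by 0.19 ± 0.043 and 0.15 ± 0.032 and were called (adjusted p = 0.0178 and 0.0138). The 6 members without a call in this role had differences of -0.18 (Orc4) to 0.40 (Orc5), both subunits of the origin recognition complex. Orc5 spread widely between arrays, with an SE of 0.13 (adjusted p = 0.122).

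Of the 4 members for nucleotide supply and topoisomerase II, 2 were called higher. Rrm2 (Entrez gene 20135), the small subunit of ribonucleotide reductase that is made in S phase, read 9.07, 9.26, 9.06 and 8.82 with PBS in experiments 1 to 4, 9.43, 9.41, 9.22 and 9.25 with activin and 8.60, 8.77, 8.71 and 8.46 with activin plus follistatin. Tk1 (Entrez gene 21877), the cytosolic thymidine kinase, gave 8.32, 8.34, 8.20 and 7.95 in the PBS arrays, 8.55, 8.47, 8.35 and 8.49 in the activin arrays and 7.93, 7.78, 7.95 and 7.69 in the arrays with follistatin. In both genes all 4 arrays with follistatin lay below all PBS and all activin arrays. The differences were 0.69 ± 0.093 for Rrm2, 1.62-fold (adjusted p = 0.000608), and 0.63 ± 0.085 for Tk1, 1.55-fold (adjusted p = 0.000698). The remaining members of this role were not called: Rrm2b, the p53-induced form of the small subunit, was not above background, and Top2b, a topoisomerase that is not tied to the cell cycle, differed by -0.099 ± 0.11.

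Of the 4 E2F factors, 2 were called higher with activin. E2f2, an activating E2F, gave 7.95, 7.76, 7.97 and 7.71 in the PBS arrays, 8.36, 7.96, 8.35 and 8.05 in the activin arrays and 7.85, 7.66, 7.92 and 7.57 in the arrays with follistatin. Activin lay above follistatin in each experiment, and the groups did not overlap, although 1 activin array lay below 1 PBS array. E2f2 differed by 0.43 ± 0.11 (adjusted p = 0.0292) and E2f3, another activating E2F, by 0.25 ± 0.060 (adjusted p = 0.0258). For E2f3 the activin and PBS means were nearly equal (8.78 ± 0.12 and 8.75 ± 0.060, SD, n = 4 each), and the arrays with follistatin were the low ones, at 8.54 ± 0.085. The repressors E2f6 and E2f8 differed by 0.0029 ± 0.085 and -0.024 ± 0.025 and were not called, and E2f8 was not above background.

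The largest positive differences were those of mitotic genes. Ccnb1 (Entrez gene 268697), which encodes cyclin B1, the partner of CDK1 at entry into mitosis, read 9.37, 9.64, 9.44 and 9.19 with PBS in experiments 1 to 4, 10.08, 9.87, 9.74 and 10.17 with activin and 9.11, 8.91, 8.96 and 8.63 with activin plus follistatin. The 3 groups did not overlap: the lowest activin array was above the highest PBS array, and the highest array with follistatin was below the lowest PBS array. Activin exceeded activin plus follistatin by 1.07 ± 0.12, 2.09-fold (adjusted p = 0.000222). It was 1 of 5 members in the role of cyclins, CDC25 and CKS proteins, and the other members were not called. Cdc25a, the phosphatase that activates CDKs at the G1 to S transition, differed by 0.11 ± 0.082 and Ccne2, a cyclin E of the same transition, by 0.12 ± 0.042, and Ccne2, Cks1b and Cks2 were not above background.

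Cdc20 (Entrez gene 107995), the activator of the anaphase-promoting complex, read 9.41, 9.31, 9.22 and 9.21 with PBS in experiments 1 to 4, 9.84, 9.90, 9.27 and 10.28 with activin and 8.87, 8.97, 8.83 and 8.53 with activin plus follistatin. Birc5 (Entrez gene 11799), which encodes survivin of the chromosomal passenger complex, gave 9.52, 9.21, 9.29 and 9.13 in the PBS arrays, 9.88, 9.67, 9.26 and 10.17 in the activin arrays and 9.21, 8.88, 8.83 and 8.49 in the arrays with follistatin. Plk1 (Entrez gene 18817), the polo-like kinase of mitotic entry and spindle assembly, read 10.82, 10.17, 10.41 and 10.02 with PBS in experiments 1 to 4, 11.12, 10.54, 10.41 and 10.63 with activin and 10.26, 9.91, 9.89 and 9.40 with activin plus follistatin. In all of them activin lay above follistatin in 4 of 4 experiments and without overlap, and experiment 3 was the one in which activin and PBS were nearly equal. The differences were 1.02 ± 0.17 for Cdc20 (adjusted p = 0.00268), 0.89 ± 0.19 for Birc5 (adjusted p = 0.0115) and 0.81 ± 0.21 for Plk1 (adjusted p = 0.0415). Aurkc, a germline Aurora kinase, and Bub1, a spindle checkpoint kinase, were not above background and were not called, so that 3 of the 5 members of this role were called, with a median difference of 0.81.

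Cenpa (Entrez gene 12615), the histone H3 variant that marks centromeres, read 11.74, 11.24, 11.49 and 10.99 with PBS in experiments 1 to 4, 12.26, 11.61, 11.47 and 11.55 with activin and 10.97, 10.61, 10.70 and 10.13 with activin plus follistatin. The arrays with follistatin lay below all others, and the activin array of experiment 1 stood highest. Cenpa had the largest positive difference of the 90 members, 1.12 ± 0.22, a 2.17-fold change (adjusted p = 0.00726). The constitutive centromere proteins Cenpo and Cenpi differed by 0.27 ± 0.069 and 0.26 ± 0.068 (adjusted p = 0.0344 and 0.0404), which made 3 of 4 centromere proteins called. Among the mitotic kinesins, Kif18b, which acts on the plus ends of spindle microtubules, gave 8.07, 8.07, 8.11 and 7.90 in the PBS arrays, 8.41, 8.45, 8.19 and 8.73 in the activin arrays and 7.85, 7.83, 7.79 and 7.74 in the arrays with follistatin. All 4 activin arrays were above all PBS arrays, and all arrays with follistatin were below them. Kif18b (Entrez gene 70218) differed by 0.64 ± 0.091 (adjusted p = 0.000943) and Kif4, the chromosome-bound kinesin of the central spindle, by 0.59 ± 0.098 (adjusted p = 0.00292), while Kif15 was not above background and was not called.

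**Figure D2:**
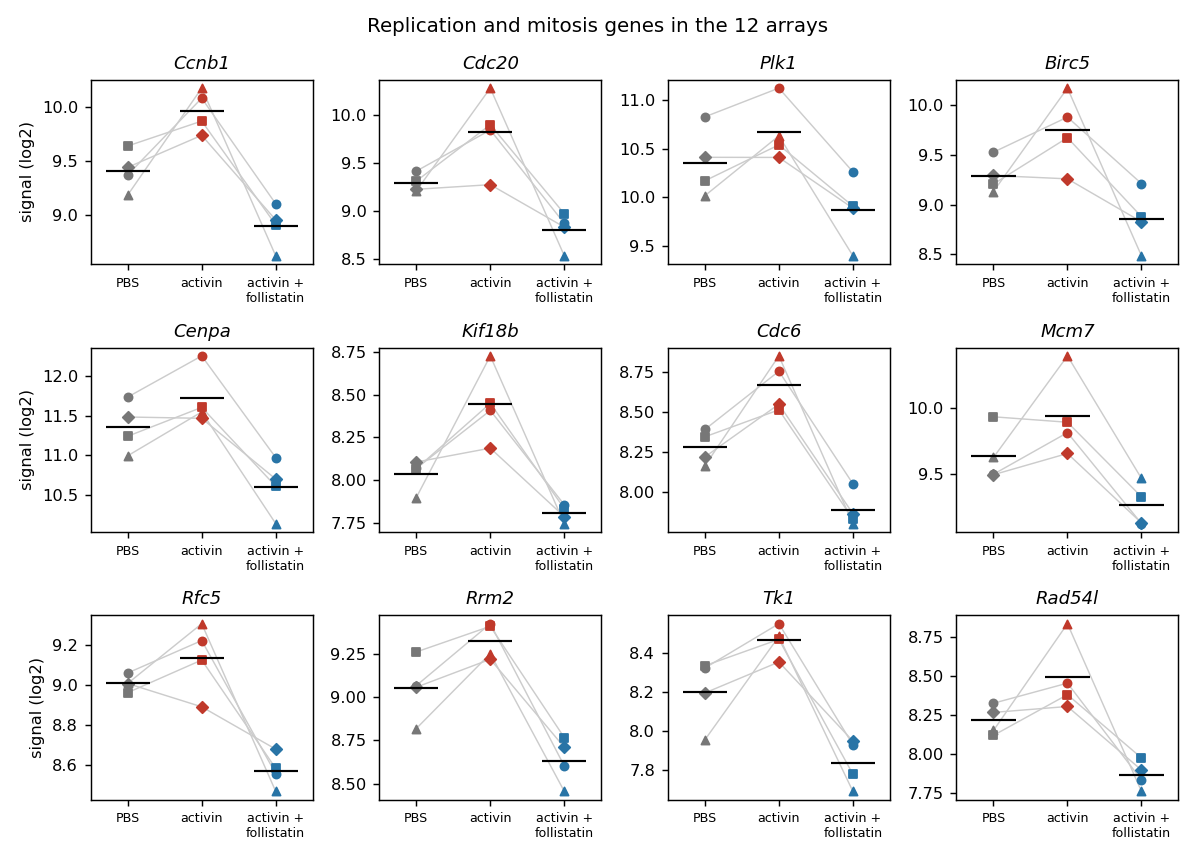
Signal (log2, vertical axis) of 12 replication and mitosis members in the PBS, activin and activin plus follistatin arrays. Symbols mark the experiment (circle 1, square 2, diamond 3, triangle 4), grey lines join arrays of 1 experiment and black bars are group means; in each panel the group with follistatin is lowest and has no overlap with the activin group.

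Of the 10 checkpoint and repair members, 2 were called. Rad54l (Entrez gene 19366), a motor protein of homologous recombination, read 8.33, 8.12, 8.27 and 8.15 with PBS in experiments 1 to 4, 8.46, 8.38, 8.31 and 8.84 with activin and 7.83, 7.97, 7.90 and 7.76 with activin plus follistatin. The activin array of experiment 4 was the highest, and the group with follistatin lay below all PBS arrays. The difference was 0.63 ± 0.10, 1.55-fold (adjusted p = 0.00203). Rad18, a ubiquitin ligase for stalled replication forks, lay close to background and differed by 0.17 ± 0.039 (adjusted p = 0.0167), and its means with PBS and with activin plus follistatin were almost equal, at 7.35 ± 0.074 and 7.36 ± 0.026 (SD, n = 4 each). Fancc, Fancm, Rad23b, Rad51ap1, Rad51c, Rad51d and Rad9b were not called and differed by -0.080 to 0.067.

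The SMC proteins, which hold and fold chromosomes, were not called in any of their 4 members, Smc1a, Smc2, Smc3 and Smc5. Their signals were clearly measured, at 10.36 for Smc1a and 10.05 for Smc3 on average, and the differences were -0.18 ± 0.10 and -0.036 ± 0.096. Of the anaphase-promoting complex, Cdc23, Cdc26 and Cdc27 were measured, together with the ubiquitin-conjugating enzyme Cdc34. They were not called, with Cdc34 at 0.23 ± 0.070 (adjusted p = 0.0831) and the complex subunit Cdc27 at 0.20 ± 0.076 (adjusted p = 0.195). With experiment as a block, in which 5.50% of all probes were called higher and 5.54% lower, Cdc34 was called too (adjusted p = 0.0493). The other Cdc34 probe, at 7.49, differed by 0.10 and was not called with the block (adjusted p = 0.652). The NIMA-related kinases Nek2 and Nek9 and the 7 further CDKs and CDK-binding proteins were not called either. Among these, Cdk2ap1, a CDK2-binding protein, differed by -0.073 ± 0.068, and Cdk10, a kinase with cyclin M, by 0.19 ± 0.13.

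The members called in the other direction were not among those assigned to replication or mitosis, an assignment made with earlier results known. Kif3c, a kinesin-2 motor subunit known for transport along microtubules, read 9.52, 9.25, 9.55 and 9.39 with PBS in experiments 1 to 4, 8.81, 8.83, 8.94 and 8.77 with activin and 9.61, 9.61, 9.82 and 9.57 with activin plus follistatin. Kif1b, a kinesin-3 motor that carries vesicles and mitochondria, gave 9.27, 9.28, 9.30 and 9.42 in the PBS arrays, 8.90, 9.12, 9.09 and 9.03 in the activin arrays and 9.42, 9.67, 9.64 and 9.69 in the arrays with follistatin. In both genes the activin arrays lay below every other array, and the arrays with follistatin lay above every PBS array, for Kif1b by less than the last digit shown. The difference between activin and activin plus follistatin was -0.82 ± 0.072 for Kif3c, 1.76-fold (adjusted p = 3.09e-05), and -0.57 ± 0.064 for Kif1b (adjusted p = 0.000182). Of the 13 other kinesins in this role, Kif1a and Kif21a were called higher, by 0.21 ± 0.034 and 0.26 ± 0.053 at low signal (adjusted p = 0.00238 and 0.0106). The other 11, Kif17, Kif1c, Kif21b, Kif24, Kif27, Kif2a, Kif3a, Kif3b, Kif5a, Kif5b and Kif7, differed by no more than 0.067 in size.

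Cdc42 bears a cell division cycle name from yeast but encodes a small GTPase of actin and cell polarity. It gave 11.70, 11.55, 11.63 and 11.66 in the PBS arrays, 11.47, 11.36, 11.33 and 11.09 in the activin arrays and 12.05, 11.84, 11.86 and 11.81 in the arrays with follistatin. Cdc42ep3, an effector that binds Cdc42 and septins, read 9.47, 9.77, 9.26 and 9.68 with PBS in experiments 1 to 4, 8.07, 8.98, 8.33 and 8.23 with activin and 9.60, 10.37, 9.66 and 10.51 with activin plus follistatin. Both had the activin arrays lowest without overlap with PBS, and for Cdc42ep3 the arrays with follistatin from experiments 1 and 3 fell within the PBS range. Cdc42ep3 had the largest difference in size of all 90 members, -1.63 ± 0.24, 3.1-fold lower with activin (adjusted p = 0.00117). Cdc42 differed by -0.57 ± 0.076 (adjusted p = 0.000576) and Cdc42ep2, a related effector not above background, by -0.21 ± 0.037 (adjusted p = 0.00432). The Cdc42-binding kinases Cdc42bpa and Cdc42bpg were not called, and Cdc42bpg had the opposite sign, 0.31 ± 0.10. With experiment as a block Cdc42bpg was called higher (adjusted p = 0.0074), as was Pole3, a small subunit of polymerase epsilon (adjusted p = 0.0346), and Cdc14b, a phosphatase, was called lower (adjusted p = 0.0212).

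Ccng1, cyclin G1, is a target of p53 rather than a driver of the cell cycle. It gave 8.95, 9.33, 9.07 and 8.97 in the PBS arrays, 9.59, 9.78, 9.70 and 9.61 in the activin arrays and 8.82, 9.11, 8.88 and 8.75 in the arrays with follistatin. All activin arrays were above all PBS arrays, and the PBS and follistatin groups overlapped. The difference between activin and activin plus follistatin was 0.78 ± 0.092, 1.72-fold (adjusted p = 0.000254). Cdkn1a, the p53 target that encodes the CDK inhibitor p21 and is no member, moved in the same direction, by 1.04 ± 0.20 (adjusted p = 0.00701). The remaining members of this mixed role, Cdc37l1, Cdc40, Cdc5l and Cdc73, of chaperone, splicing and transcription functions, differed by -0.065 to 0.018.

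**Figure D3:**
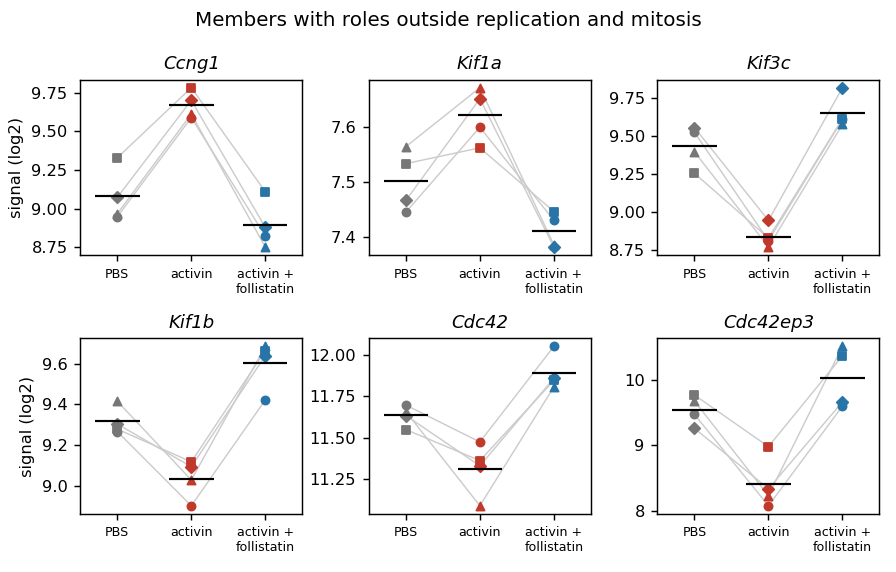
Signal (log2, vertical axis) of 6 members whose main role lies outside replication and mitosis, in the PBS, activin and activin plus follistatin arrays. Symbols mark the experiment (circle 1, square 2, diamond 3, triangle 4) and black bars the group means; Ccng1 and Kif1a are highest with activin, and Kif3c, Kif1b, Cdc42 and Cdc42ep3 are lowest with it.

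The comparison of activin with PBS asks what added activin changes over the untreated cultures. Of the 90 members, 5 (5.56%) were called higher and 4 (4.44%) lower, against 1.65% and 1.26% of all probes and 2.85% and 2.14% of all named genes. Among the 64 members above background, the same 5 and 4 were called (14.1%). Of 4068 named genes above background, 223 were higher and 171 lower (9.69% called). The 5 were Ccng1, which rose by 0.59 ± 0.092 (adjusted p = 0.00466), Ccnb1 by 0.56 ± 0.12 (adjusted p = 0.0352), Kif18b by 0.41 ± 0.091 (adjusted p = 0.0345), Cdc6 by 0.39 ± 0.083 (adjusted p = 0.0288) and Rad18 by 0.18 ± 0.039 (adjusted p = 0.0284). Cdc42ep3 fell by 1.14 ± 0.24 (adjusted p = 0.0256), Kif3c by 0.59 ± 0.072 (adjusted p = 0.000793), Cdc42 by 0.32 ± 0.076 (adjusted p = 0.0479) and Kif1b by 0.28 ± 0.064 (adjusted p = 0.0388). The mitotic genes with the larger spread had no call: Cdc20 differed by 0.53 ± 0.17 (adjusted p = 0.159), Birc5 by 0.45 ± 0.19 (adjusted p = 0.332) and Cenpa by 0.36 ± 0.22 (adjusted p = 0.611). The activin and PBS arrays did not overlap in 13 members, 9 higher and 4 lower, against 3.70% and 3.80% of all probes.

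With experiment as a block, 8 members were higher and 5 lower with activin than with PBS (3.09% and 3.03% of all probes), since E2f2, Kif4 and Rrm2 were added on the higher side (adjusted p = 0.00076, 0.0234 and 0.0145) and the repressor E2f6 on the lower side (adjusted p = 0.0242). Both further E2f6 probes, above background at 7.47 and 7.81, differed by -0.025 and 0.063. They were not called with the block (adjusted p = 0.92 and 0.72), so the E2f6 call rests on its brightest probe alone. The 9 calls made without the block were sensitive to single arrays, and the calls with the block were not refitted in this way. Without 1 array, 1 member was called higher when activin 1, PBS 3 or PBS 4 was left out, 2 without activin 2 or activin 4, 3 without PBS 1, PBS 2, or the array with follistatin of experiment 2 or 3, and 5 or 6 without the others. Of the 4 lower calls, 1 was left without activin 3, activin 4, PBS 1, PBS 2 or PBS 4, 2 without activin 1, PBS 3 or the array with follistatin of experiment 2 or 3, and 3 without activin 2 or the array with follistatin of experiment 4. The calls of Ccng1 and Kif3c held without each single array, and the other 7 reached an adjusted p of 0.0763 (Cdc42ep3) to 0.132 (Cdc42) at their weakest. Only 1 of the 9 calls, that of Kif3c, held without each whole experiment. Without experiment 3 Ccng1 reached an adjusted p of 0.0774.

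Activin plus follistatin was compared with PBS to see whether the antagonist brought the cultures back to the vehicle level or past it. By limma 0 of the 90 members were called, against 0.178% of all probes, and 25 members had an unadjusted p under 0.05, 18 of them lower and 7 higher. Of all probes, 7.17% had such a p, 3.47% lower and 3.70% higher. The groups did not overlap in 17 members, 13 lower and 4 higher with follistatin than with PBS, against 2.39% and 2.08% of all probes. The values nearest to the threshold were those of Rfc5, -0.44 ± 0.076 (adjusted p = 0.0556), Cdc6, -0.39 ± 0.083 (adjusted p = 0.129), and Rrm2, -0.42 ± 0.093 (adjusted p = 0.158). Cenpa had the largest difference, -0.76 ± 0.22 (adjusted p = 0.337).

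With experiment as a block, 5 members were called lower with activin plus follistatin than with PBS and 1 higher, against 0.610% and 0.599% of all probes. The 5 were Cenpa (adjusted p = 0.0054), Rrm2 (adjusted p = 0.00689), Cdc6 (adjusted p = 0.0316), Rfc5 (adjusted p = 0.0322) and Tk1 (adjusted p = 0.0389), and the other was Kif1b (adjusted p = 0.0146). The comparisons with PBS share the 4 PBS arrays, so their values stand side by side here and are not independent. Among the 24 members called higher when activin acted alone, the PBS mean lay between the other means in 23, with Rad18 as the exception, and it lay between them in all 5 members called lower. These members were picked for a difference between the other groups in the same arrays, which by itself makes a PBS mean between them likely. Over all 90 members the order follistatin, PBS, activin held in 37 and the reverse order in 15, where all named genes had 1842 and 2154 of 8127.

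**Figure D4:**
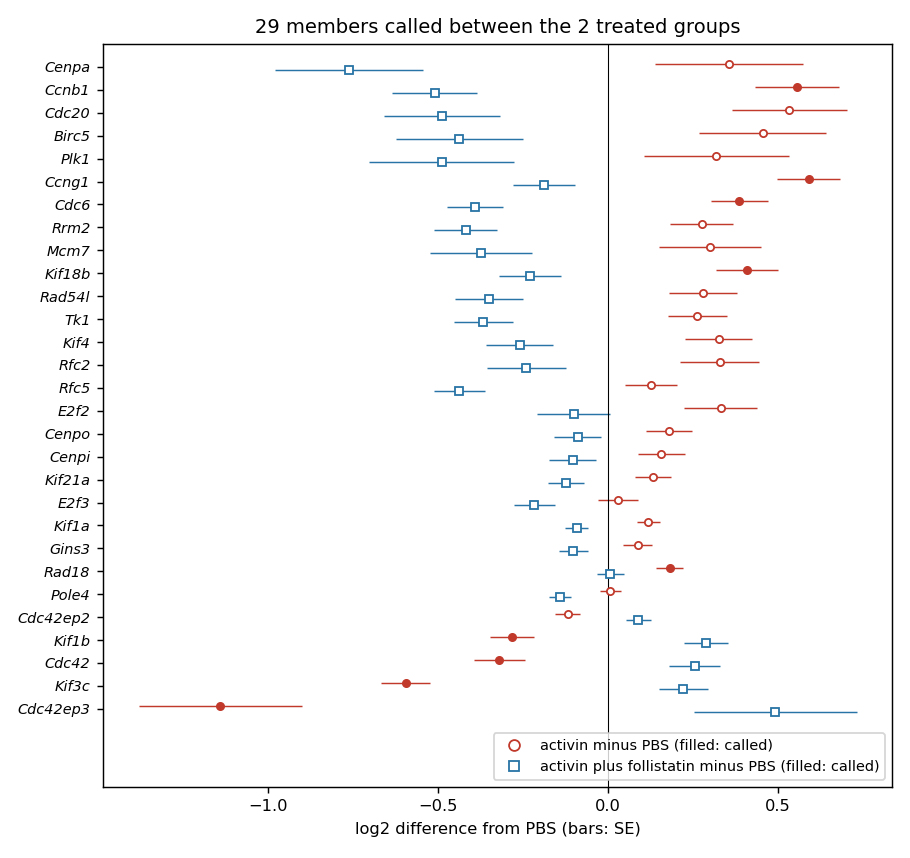
Log2 difference from PBS (horizontal axis) with activin (circles) and with activin plus follistatin (squares) for the 29 members called between these groups, with standard errors as bars and filled symbols for calls. Both differences use the same 4 PBS arrays. Of the replication and mitosis genes most lie above PBS with activin and below it with follistatin, on both sides of 0, which the choice by calls makes likely.

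The members called between activin and activin plus follistatin were picked from these same 4 experiments. A shared direction over the experiments is therefore largely given by the call. The experiments differed in the size of the difference. All 24 members called higher had activin above activin plus follistatin in 4 of 4 experiments, and all 5 called lower had it below. Experiment 4 held the largest difference for 19 of the 24, and experiment 3 the smallest for 13. The median difference of the 24 was 0.59, 0.55, 0.42 and 0.85 in experiments 1 to 4. Against PBS, activin was higher in 22, 19, 17 and 24 of these members in the same order. The median for the mitotic kinases, Cdc20 and Birc5 was -0.0012 over PBS in experiment 3 and 0.61 in experiment 4. Treatment accounted for a median of 31.6% of a member's variance and experiment for 23.2%, where the medians over all named genes were 19.8% and 28.0%.

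**Figure D5:**
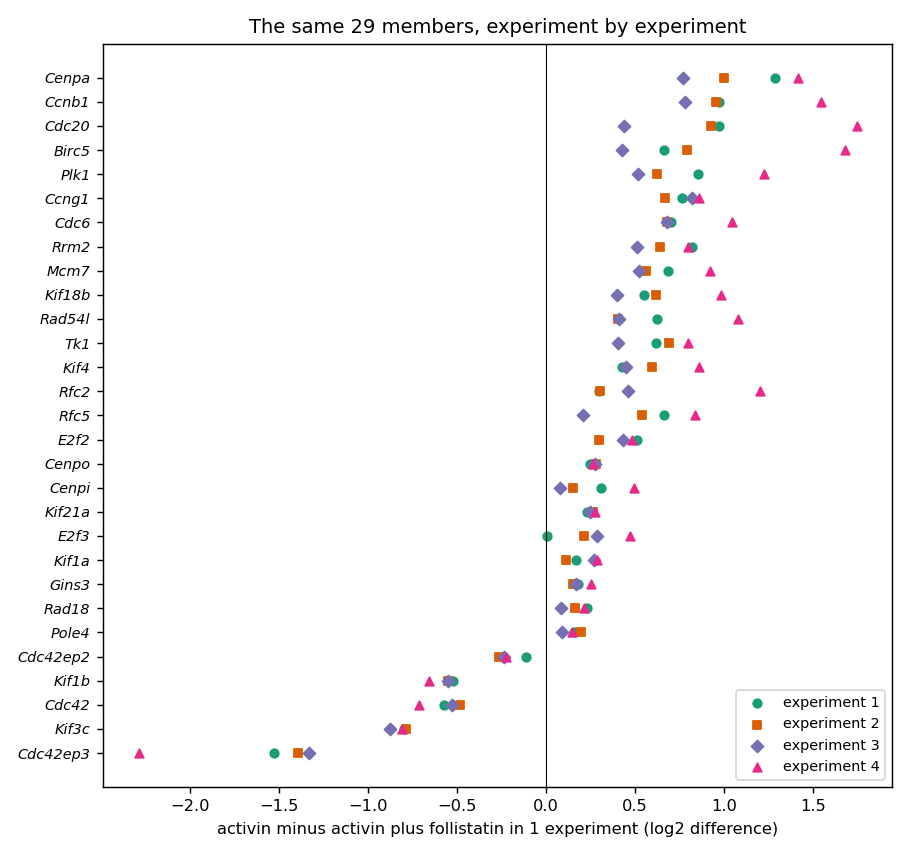
Difference between activin and activin plus follistatin (log2, horizontal axis) in each of the 4 experiments for the 29 called members, in the order of their mean difference. For 19 of the 24 members on the right the triangle of experiment 4 is farthest from 0. No point lies on the other side of 0 from the rest of its gene, which the choice by calls largely sets.

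The calls between activin and activin plus follistatin were steadier than those against PBS. Without 1 array, 18 to 24 members were called higher and 5 or 6 lower, and 21 of the 29 calls held without each single array. Without the 3 arrays of experiment 2 or of experiment 3, 13 and 15 members were called higher. Only 15 of the 29 calls held without each whole experiment. Birc5, Cenpa, Rfc2, Pole4, Kif21a and Cdc42ep2 held without each single array but not without each experiment. Without an array of activin 1 or with follistatin 4, Rad18 was not called, and without the array with follistatin 3 Gins3 and Mcm7 were not (Mcm7 also without that of experiment 1). Plk1 and Cenpi each lost the call without any of 8 arrays, which were activin 1, activin 4, PBS 3 and those with follistatin 2, 3 and 4 for both, activin 2 and PBS 2 for Plk1, and follistatin 1 and PBS 4 for Cenpi. Cenpo lost it without activin 1, 3 or 4 or follistatin 2, 3 or 4, E2f2 without activin 1 or 3 or follistatin 2 or 4, and E2f3 without activin 2 or follistatin 2, 3 or 4. The highest adjusted p without 1 array was 0.114 for Plk1, 0.116 for Cenpi, 0.0976 for Cenpo, 0.0885 for E2f2, 0.082 for E2f3, 0.0579 for Gins3, 0.0558 for Mcm7 and 0.0522 for Rad18.

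A gene was represented by its brightest probe, and 12 of the 29 called members had another named probe. Of these 15 probes 6 were above background and 5 were called, all in the same direction as the brightest one. Both further Birc5 probes differed by 0.56 ± 0.13 and 0.65 ± 0.14, both further Cdc20 probes by 0.38 ± 0.066 and 0.26 ± 0.062, and the other Kif3c probe by -0.40 ± 0.053. The other E2f3 probe, at 7.36, differed by -0.055 ± 0.049 and was not called. The further probes of Cdc42, Cdc6, Cenpo, E2f2, Plk1, Rfc5, Rrm2 and Tk1 were not above background and were not called, so for these genes 1 probe carries the result.

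Ahead of their genes' starts, several of the mitotic members hold the letters of motifs known from cell-cycle promoters: CCAAT, bound by NF-Y, and TTTGAA, the cell cycle genes homology region (CHR) at which the DREAM and MuvB complexes bind, with TTTAAA as a variant. Shown are 120 bases before the start for 5 mitotic members and Rrm2, chosen with their matches known, from RefSeq on GRCm38.p6, 5′ to 3′ on the gene's strand, with capitals for the matches on either strand (ATTGG is CCAAT on the other strand).
Ccnb1 (chr13:100786487-100786606, minus strand): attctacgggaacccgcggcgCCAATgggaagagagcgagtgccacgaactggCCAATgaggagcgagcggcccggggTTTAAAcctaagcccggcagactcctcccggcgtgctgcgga
Cdc20 (chr4:118437344-118437463, minus strand): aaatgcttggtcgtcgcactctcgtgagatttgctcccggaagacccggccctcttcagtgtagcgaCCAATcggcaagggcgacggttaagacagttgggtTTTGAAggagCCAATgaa
Cenpa (chr5:30666766-30666885, plus strand): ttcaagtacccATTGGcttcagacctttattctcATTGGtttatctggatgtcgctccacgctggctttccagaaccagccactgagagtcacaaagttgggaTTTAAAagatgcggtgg
Plk1 (chr7:122159315-122159434, plus strand): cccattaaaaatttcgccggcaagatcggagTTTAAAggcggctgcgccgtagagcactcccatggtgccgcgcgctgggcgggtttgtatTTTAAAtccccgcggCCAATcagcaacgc
Kif18b (chr11:102925125-102925244, minus strand): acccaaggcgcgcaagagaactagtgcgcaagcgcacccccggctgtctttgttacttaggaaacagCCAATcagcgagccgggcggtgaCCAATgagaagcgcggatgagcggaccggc
Rrm2 (chr12:24708134-24708253, plus strand): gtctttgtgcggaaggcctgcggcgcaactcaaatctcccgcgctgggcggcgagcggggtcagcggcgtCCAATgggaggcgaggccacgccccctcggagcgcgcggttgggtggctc
Ccnb1 has CCAAT from 99 and 67 bases before the start and TTTAAA from 42 bases before it. In Cdc20, TTTGAA starts 18 bases before the start and lies between CCAAT matches at 53 and 8 bases. Cenpa and Plk1 hold TTTAAA together with CCAAT, Kif18b holds CCAAT at 53 and 30 bases, and Rrm2 holds 1 CCAAT at 50 bases.

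Over the windows of 250 bases before to 50 after the start, RefSeq's table held 93 windows for 79 of the 90 members and 32851 windows in all. Searched on both strands, CCAAT was in 52.7% of the members' windows and 37.4% of all windows, TTTGAA in 19.4% and 17.9%, TTTAAA in 10.8% and 13.2%, TTCGAA in 4.30% and 1.56%, and the E2F motif TTTNGCGC in 6.45% and 1.38%. No match of one motif can lie inside that of another, though neighbours can share end bases. Among the members called higher when activin acted alone, 23 of 24 had windows, 30 in all. CCAAT was in 56.7% of them and TTTGAA in 30.0%, both together in 26.7% against 6.95% of all windows, and TTTNGCGC in 2 windows (6.67%), those of E2f2 and Mcm7. The 5 members called lower had 6 windows, of which 3 held CCAAT and 0 held any of the other motifs. These are matches of letters and say nothing of whether a factor was bound in these cells.

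Genes of the same processes outside the families were read from lists, also chosen with earlier results of these data known. Of 32 further S phase genes 16 were measured, and by limma 7 were higher in the activin group than in the group with follistatin and 0 lower (9 and 0 at an unadjusted p under 0.05), where 3.65% and 3.50% of all probes were called. Clspn, the adaptor of the replication checkpoint, differed by 0.81 ± 0.074, Uhrf1, which maintains DNA methylation behind the fork, by 1.01 ± 0.14, Usp1, a deubiquitinase of the clamp, by 0.63 ± 0.076, and Pcna, the clamp itself, by 0.53 ± 0.079 (adjusted p = 4.21e-05, 0.00094, 0.000291 and 0.00139). Of 57 further mitosis genes 18 were measured, 10 higher and 1 lower. Under the block by experiment Ube2c, a ubiquitin-conjugating enzyme of the anaphase-promoting complex, Cdca7, a target of E2F and MYC, and Spc24 of the kinetochore were called higher too (adjusted p = 0.0363, 0.0134 and 0.0387), which made 13. With the block, 5.50% of all probes were called higher in this comparison and 5.54% lower. Mki67, the proliferation antigen Ki-67, differed by 0.71 ± 0.099 (adjusted p = 0.000864), Sgo1, which protects centromeric cohesion, by 0.40 ± 0.073, and Foxm1, a transcription factor of mitotic genes, by 0.23 ± 0.039. The gene called lower was Stmn1, a protein that destabilises microtubules, at -0.82 ± 0.14 (adjusted p = 0.00375). Against PBS, where 1.65% of all probes were called higher and 1.26% lower, 3 of the 16 S phase genes were higher with activin, and of the 18 mitosis genes 1 was higher, Haus8 of the spindle augmin complex (0.38 ± 0.060), and 1 lower, Stmn1, whose call was lost without activin 1, 2 or 3, PBS 2, 3 or 4 or the array with follistatin of experiment 3. With the block, for which those shares were 3.09% and 3.03%, 5 S phase genes were higher, Pcna and Uhrf1 being added (adjusted p = 0.0217 and 0.0341), and 2 mitosis genes, with Ckap5, a microtubule polymerase (adjusted p = 0.0211). Under the block Uhrf1 and Clspn were lower with activin plus follistatin than with PBS (-0.57 ± 0.14 and -0.40 ± 0.074, SE without the block; adjusted p = 0.0308 and 0.0293).

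Among 15 CDK inhibitors, pocket proteins and D cyclins 6 were measured. The difference between activin and activin plus follistatin was 3.46 ± 0.43 for Cables1, a CDK-binding adaptor, 1.04 ± 0.20 for Cdkn1a and -0.19 ± 0.042 for Ccnd1, cyclin D1, which lay near background (adjusted p = 0.000368, 0.00701 and 0.0158). Between activin plus follistatin and PBS, Cables1 differed by -1.35 ± 0.43 (SE without the block). It was called with experiment as a block (adjusted p = 0.0218) and not without it (adjusted p = 0.426).

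The cultures carried granulosa markers and signs of other cells. Of 16 granulosa markers 3 were measured and all lay above background: Amhr2, the receptor of anti-Müllerian hormone, at a mean of 12.7, Wt1 at 9.38 and Fst, the follistatin gene, at 10.7. Fst differed by 4.22 ± 0.19 between activin and activin plus follistatin, and Amhr2 and Wt1 were not called. With experiment as a block Wt1, at -0.73 ± 0.22 (SE without the block), was called lower with activin than with added follistatin. The adjusted p was 0.00021 with the block and 0.0792 without it. Under the block Wt1 was also lower with activin than with PBS (adjusted p = 0.0196). Of 16 theca and stroma markers 10 were measured, and 3 were called lower with activin than in the group with follistatin: Dcn (-2.81 ± 0.54), Aldh1a1 (-2.35 ± 0.22) and Col3a1 (-0.95 ± 0.12), with a median of -0.039 over the 10. Of all probes 3.50% were called lower in that comparison. Against PBS, Aldh1a1 and Col3a1 were called lower with activin, where 1.26% of all probes were. With the block Dcn was lower too (adjusted p = 0.00668), and Gli2, a transcription factor of hedgehog signalling, was higher with activin than in the other groups (adjusted p = 0.0443 against PBS and 0.0134 against follistatin). The log2 of the summed signal of these 10 markers was 14.40 to 15.02 with PBS, 12.52 to 13.30 with activin and 14.67 to 15.35 with activin plus follistatin. This sum mostly follows the brightest markers, since the highest marker mean was 14.0 and the median 7.33. The mean log2 signal of the 10 was 8.16 to 8.40, 7.83 to 7.95 and 8.40 to 8.63 in the same order. Lhcgr, Col1a2, Ptch1, Nr2f2 and Insl3 were not above background. Of 4 endothelial markers measured, Robo4 was called lower (-0.80 ± 0.097), with the block also against PBS (adjusted p = 0.0409), and with the block it was higher with activin plus follistatin than with PBS (adjusted p = 0.00775). All 4 endothelial markers, Robo4 included, lay close to background, with means of 7.29 to 7.47, and Emcn and Eng were not above it. Of the 15 measured markers of macrophages, oocytes, surface epithelium, smooth muscle and erythroid cells not a single one was called in any comparison, with or without the block. Most of them, namely Cd68, Csf1r, Ptprc, Itgam, Dppa3, Krt19, Upk3b, Lgals7, Cnn1 and Hba-a1, were not above background. Any change of these can be understated, so the lack of calls does not show that such cells were unchanged. The 4 theca, stroma and endothelial markers called lower had the opposite sign to the replication and mitosis members that were called higher. Of the granulosa markers Fst had the same sign as those members, and Amhr2 (-0.061) and Wt1 (-0.73) had the opposite sign. The part of all these markers in the result was not tested.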

How the data were processed

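Per the labels, about 100 ng of RNA from each of 12 cultures was amplified with T7 and hybridized to Illumina Sentrix Mouse-6 arrays. The deposited values are on a log2 scale, or one like it, already normalized between arrays by the authors; the method is not given in the sources used here, and the submitters' processing notes name lumi 1.2.0 without its role. They were not transformed again, and each fold change is 2 raised to the difference. Left out were 32 control spots of 46116 rows. Detection calls were not used, and the number of arrays limits the precision.

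Probes were named by the digits in their identifiers, read as Entrez gene numbers in a RefSeq table on GRCm38.p6. The files do not state this reading. Of 10024 numbers with 5 or more digits, 81.1% were in that table, against 45.9%, 44.5% and 41.5% after adding 1, 2 and 5. The brightest probe by the mean of 12 arrays stood for a gene. Of the members, 60 had 1 probe and 30 had several, with 37 further probes.

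Groups came from the labels. One limma 3.58.1 fit of 3 group means (R 4.3.3) covered the 46084 probes, with moderated 2-sided tests. P-values were adjusted by Benjamini-Hochberg across the probes, and an adjusted p under 0.05 is a call. It was tested on simulated data. The design text says that a replicate number marks a shared experiment. With group means removed, the correlation over 14707 probes was 0.331 to 0.801 within an experiment and -0.632 to 0.406 across experiments, and for 11 of 12 arrays it was highest within the own experiment. Calls of members and listed genes that experiment as a block changed are therefore printed. The p-values measure the spread between pooled cultures of 4 experiments.

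Members, roles and lists were chosen with earlier results of these data known. Genes were named if called with the smallest p in a comparison (up to 25), if called against the main direction, if among the 3 with the smallest p or the 2 with the highest signal of a role, or if fixed as textbook members. Orc4, Orc5, Cdc42bpg, Pole3, Cdc14b, genes of the lists whose call the block changed, and the ends of ranges were chosen after their values were seen. The values of 1 member are not reported here. Alternatives were the block (fixed or random), quantile normalization, median centring, subtraction of background with an offset of 50, dim probes left out, only the arrays compared, array weights, the mean of a gene's probes, and leaving out arrays or experiments. Promoter windows are RefSeq's, of 300 bases.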

Additional observations from a re-analysis of the deposited data

Results flagged for a closer look

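Among 210 pairs of a gene and a group of 4 arrays (70 genes), 8 held 1 array whose gap to the nearest other array, divided by the group's range, was above Dixon's critical value for a group of that size. Chance alone marks about 1 group in 20. The array with follistatin of experiment 4 read 8.80 for Cdc27, where the others read 8.63 to 8.66, and that of experiment 3 read 9.82 for Kif3c, where the others read 9.57 to 9.61. For Stmn1, which is no member, the array with follistatin of experiment 1 read 11.02 and the others 11.37 to 11.44. PBS 2 read 8.31 for Cdc25a (others 8.03 to 8.07) and 11.18 for Cdc5l (others 10.97 to 10.98), and PBS 1 read 9.96 for Rfc2 (others 9.84 to 9.86). Activin 3 read 10.93 for Cdc5l (others 11.06 to 11.07), and activin 2 read 7.35 for Kif15 (others 7.24 to 7.25), a gene not above background.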

How the results depend on the processing

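Of the counts and differences recomputed, 0 changed direction. With experiment as a fixed block, which the replicate numbers pair, activin against PBS gave 2820 probes in place of 1342 and 8 members called higher in place of 5, activin plus follistatin against PBS gave 557 probes in place of 82, with 1 member higher and 5 lower in place of 0 and 0, and activin against activin plus follistatin gave 5087 probes in place of 3296. Beyond the calls named above, the block changed no other call of a member. As a random block it gave 132 probes and 1 member lower for activin plus follistatin against PBS. In that comparison 1 member was also lower after quantile normalization, with dim probes left out, with only the arrays compared and with array weights, and the probes numbered 40 after background subtraction, 132 without dim probes and 127 with only the arrays compared.

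For activin against PBS, background subtraction left 2 members higher and 1 lower, and using only the arrays compared left 1 higher. Leaving out 1 array or 1 experiment gave 1 to 6 members higher, 1 to 4 lower and 625 to 1356 probes. For activin plus follistatin against PBS it gave 0 or 1 member higher, 0 to 2 lower and 24 to 107 probes. For activin against activin plus follistatin it gave 13 to 24 members higher, 5 or 6 lower and 2091 to 3268 probes, and the other settings gave 19 to 27 members higher and 4 to 6 lower. With 4 arrays per group and no background subtraction, any change of the 26 members not above background can be understated by an unknown amount. The files hold no gene names, and most genes rest on 1 probe.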
